A study of Mus musculus with 11 samples.

Results

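The genes of glycolysis and pyruvate metabolism were examined in retinal vascular endothelial cells of mice in the oxygen-induced retinopathy (OIR) model. The 32 genes were taken from a list of symbols, from the glucose and lactate transporters to the pyruvate carrier of mitochondria, and the rule for the list uses no measured value. Each symbol was matched with GENCODE to the Ensembl identifier of the count files, and all 32 were found among the 55359 genes counted. All 32 also passed the filter on low counts, which left 17050 genes for testing. The samples were 11 C57BL/6 mice from 3 litters, each litter being 1 OIR run. Litters 1 and 2 held 2 OSM-treated and 2 PBS-treated samples each, and litter 3 held 1 OSM-treated and 2 PBS-treated samples. OSM (oncostatin M, a cytokine of the interleukin 6 family) was injected into the vitreous at P12 as 0.5 µL of a 100 ng/µL solution, and the same volume of PBS was the control. At P17 the CD31+/CD45- cells of both retinas of a mouse were sorted together, and 1 sample is 1 mouse. The study's methods mention PBS in contralateral eyes and do not say if both eyes of a sequenced mouse had the same treatment, so the treatment of a sample is that of its label.

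Glycolysis breaks glucose down to pyruvate in the cytosol. Hexokinase, phosphofructokinase and pyruvate kinase catalyse its steps that are practically irreversible, and most steps are shared between paralogous enzymes that are used to different degrees in different tissues. Lactate dehydrogenase turns pyruvate into lactate, whereas the mitochondrial pyruvate carrier and the pyruvate dehydrogenase complex lead it to the citric acid cycle. Endothelial cells are known for a high rate of glycolysis, also with oxygen present, and sprouting vessels depend on the regulator Pfkfb3. Many genes of the pathway are known targets of hypoxia-inducible factor.

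The reads counted on genes numbered 26697990 to 56033479 per mouse (median 32500202). The summed normalised counts of 11 endothelial markers were 472127 to 650899 per mouse, and those of 7 leukocyte markers 5.2 to 492.7. A normalised count is the number of reads after scaling by TMM factors to the mean library. The summed level of 12 rod markers was 192737 in OSM-treated mouse 5, 65617.8 in OSM-treated mouse 6 and 52776.6 in PBS-treated mouse 10, and 7191.2 to 27643.6 in the other mice. In bulk samples, fewer cells of a type and less RNA per cell cannot be told apart.

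Several of the 32 genes have near-identical copies elsewhere in the genome. Reads of 50 bases that fit several places equally well are left out by the counting tool at its standard settings, so the count of such a gene is too low by an unknown amount. To see where this could matter, each 50-base window of each canonical transcript was looked up in GRCm39. In 20 of the 32 genes at least 97.98% of windows were found nowhere else. The phosphoglycerate mutase gene Pgam1 (6.40% of windows found once) and the phosphoglycerate kinase gene Pgk1 (7.10%) were at the other end. Gapdh, the dehydrogenase of the sixth step, had 14.4%, the pyruvate carrier subunit Mpc1 34.5%, the enolase Eno1 36.4% and the pyruvate kinase Pkm 59.8%. The remaining genes, Pdhb, Ldha, Ldhb, Gpi1, Tpi1 and Aldoa, had 66.2% to 84.8%. Levels of these genes relative to other genes are therefore understated.

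**Figure D1:**
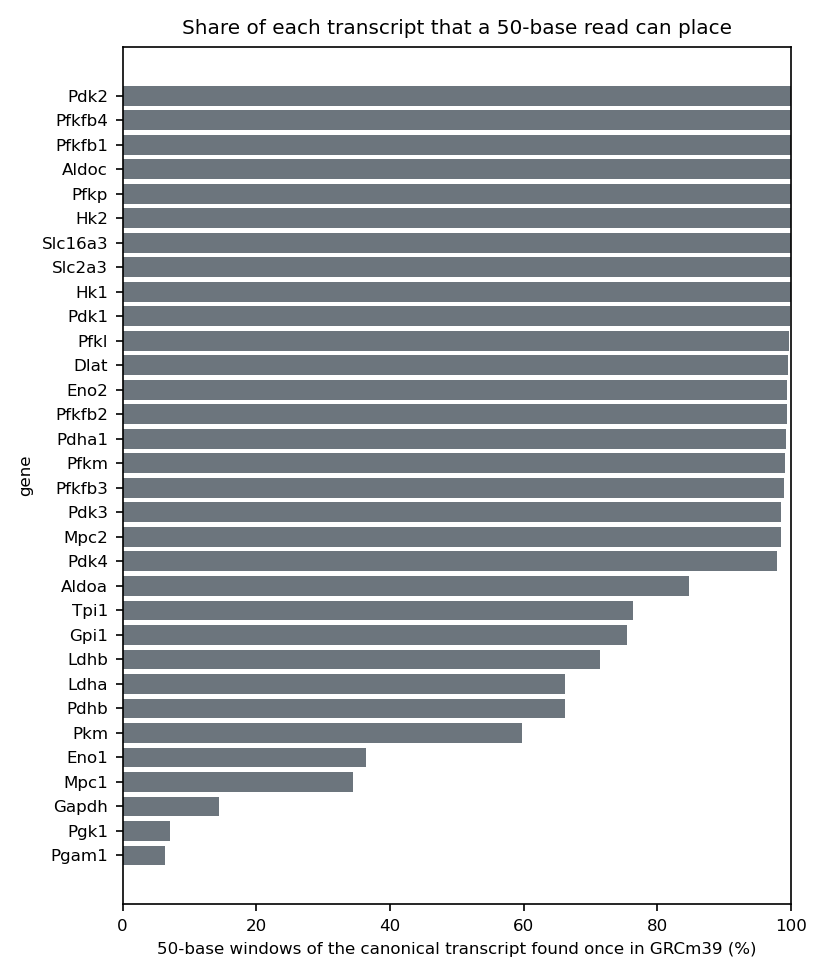
Bars give, for each of the 32 genes, the percentage of 50-base windows of the canonical transcript that occur once in GRCm39. In all, 20 genes reach at least 97.98%, and 5 genes lie under 50%, from Pgam1 with 6.40% to Eno1 with 36.4%.

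The 250 bases upstream of the canonical start were searched on both strands for ACGTG and GCGTG, the core letters of hypoxia response elements. ACGTG stood in the window of 10 of the 32 genes (31.25%) and of 17.03% of 21627 protein-coding genes. GCGTG stood in 13 windows (40.6%), against 31.2% of all windows. Either was found in 19 windows (59.4%), against 41.3%. The 2 sets were not matched for level or base composition, so the shares do not show an enrichment. Some windows overlap exons of other transcripts of the same gene, such as that of Aldoa with all 250 bases. The palindrome CACGTG holds ACGTG on both strands and was taken as 1 place. Below are the windows of the genes with the fewest readable bases, Pgk1 and Pgam1, and those of Pfkp and Pfkl, which share the phosphofructokinase level in these cells and of which 1 holds a match and the other holds none. They are GRCm39 sequence on the strand of the gene, upstream of its exons, and capitals mark the matches, written as ACGTG or GCGTG on this strand and as CACGT or CACGC where they lie on the other.
Pgk1, chrX:105230456-105230705, strand +: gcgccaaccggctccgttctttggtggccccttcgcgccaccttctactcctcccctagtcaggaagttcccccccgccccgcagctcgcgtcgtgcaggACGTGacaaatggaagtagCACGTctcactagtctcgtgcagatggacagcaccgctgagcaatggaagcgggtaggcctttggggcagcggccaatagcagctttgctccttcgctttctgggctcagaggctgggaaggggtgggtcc
Pgam1, chr19:41900091-41900340, strand +: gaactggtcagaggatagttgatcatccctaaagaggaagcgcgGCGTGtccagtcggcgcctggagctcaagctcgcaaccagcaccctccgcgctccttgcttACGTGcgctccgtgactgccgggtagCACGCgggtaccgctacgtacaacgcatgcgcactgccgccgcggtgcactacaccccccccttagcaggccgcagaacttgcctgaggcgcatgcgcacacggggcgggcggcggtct
Pfkp, chr13:6698971-6699220, strand -: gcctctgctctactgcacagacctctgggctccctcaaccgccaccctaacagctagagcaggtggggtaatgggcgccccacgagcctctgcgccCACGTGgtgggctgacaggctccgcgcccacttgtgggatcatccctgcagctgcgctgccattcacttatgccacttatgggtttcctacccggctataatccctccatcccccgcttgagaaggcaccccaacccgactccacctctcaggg
Pfkl, chr10:77845923-77846172, strand -: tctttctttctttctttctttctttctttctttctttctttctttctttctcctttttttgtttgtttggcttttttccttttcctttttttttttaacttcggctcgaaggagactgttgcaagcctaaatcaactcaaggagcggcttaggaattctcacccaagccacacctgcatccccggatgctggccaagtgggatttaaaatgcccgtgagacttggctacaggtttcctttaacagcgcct
The Pgk1 window held 2 places, Pgam1 3, Pfkp 1 and Pfkl 0. A match is a description of the letters and is no evidence of binding.

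Levels of different genes were compared only per length, as RPKM, the reads per length of the canonical transcript at a common sequencing depth. The lactate dehydrogenase gene Ldha was highest, with 940 ± 122 RPKM (SD, n = 11). Aldoa (608 ± 92.9), Pkm (556 ± 37.9) and Gapdh (504 ± 73.1) followed, and their ranges over mice overlapped from 1 to the next. The ranges of Gapdh and Eno1 (292 ± 18.8) did not overlap, and neither did those of Gpi1 (231 ± 24.3) and Pfkl (110 ± 16.8). From Pfkl downward each gene overlapped its neighbour in the order. The pyruvate dehydrogenase subunits Pdhb and Pdha1 had 66.5 ± 10.5 and 29.1 ± 5.93 RPKM, and the main hexokinase gene Hk1 had 62.2 ± 12.7. The lowest were Hk2 (0.256 ± 0.415), the glucose transporter gene Slc2a3 (0.622 ± 0.954) and Pfkfb4 (0.826 ± 0.798). The order of Gapdh, Eno1, Pgk1, Pgam1 and Mpc1 holds for the reads that could be placed, not for their transcripts. The same limit applies, to a lesser degree, to Pkm, Ldha, Pdhb, Ldhb, Gpi1, Tpi1 and Aldoa. These had 59.8% to 84.8% of windows found once.

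The study sorted these cells to see what OSM treatment changes in their transcripts. At P17 no gene of the pathway passed the test between OSM-treated and PBS-treated samples. By edgeR's quasi-likelihood test with litter as a term and Benjamini-Hochberg adjustment, 0 of the 32 genes had an adjusted p under 0.05, as had 0 of all 17050 genes (0.0%). The lowest adjusted p among the 32 was 0.955. At an unadjusted p under 0.05 the count was again 0 of 32, against 846 of 17050 (4.96%). The study itself used DESeq2 with a correction for batch and reported genes that differed at an adjusted p under 0.05. Here DESeq2 called 0 of the 32 genes and 168 of the 22207 genes with an adjusted p (0.757%). Its counts were not filtered beforehand, but by default DESeq2 gives no adjusted p to genes with low mean counts. It gave an unadjusted p under 0.05 to 6.07% of all 28940 genes and to 2 of the 32, Hk2 (unadjusted p = 0.00174, adjusted p = 0.131) and Pdk2 (unadjusted p = 0.0296, adjusted p = 0.527). The estimates were positive in 23 genes and negative in 9. Their median log2 fold change was 0.07, and that of all genes tested was -0.01. The median size of the log2 fold change, without its sign, was 0.11 in the 32 genes and 0.30 over all genes. This size depends on the level. Among the 32, standard errors were 0.06 to 0.12 above 10000 normalised counts and 0.74 to 2.95 up to 500. The genes were not matched for level, so the medians do not compare the response of the pathway with that of other genes. In 7 genes (Hk1, Hk2, Aldoc, Pkm, Pfkfb3, Pdk2 and Pdhb) the OSM-treated samples were higher in each of the 3 litters, which held for 11.3% of all genes. In 1 gene, Pfkp, they were lower in each litter, against 11.7% of all genes. The groups overlapped in all 32 genes, as they did in all but 0.405% of all genes.

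How large a difference could have gone unseen depended on the level. Of the 32 genes, 9 had a mean above 10000 normalised counts (Gpi1, Pfkl, Pfkp, Aldoa, Tpi1, Gapdh, Eno1, Pkm and Ldha). Their coefficient of variation over the 11 mice was 6.42% to 15.3%, and the 95% intervals of their fold changes lay within 0.730-fold and 1.22-fold. In the 15 genes with means from 500 to 10000, the coefficient of variation was 14.8% to 54.3% and the intervals reached from 0.5683-fold to 1.77-fold. In the 8 genes with means up to 500, the coefficient of variation was 55.1% to 162%, and their intervals do not limit the difference usefully.

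**Figure D2:**
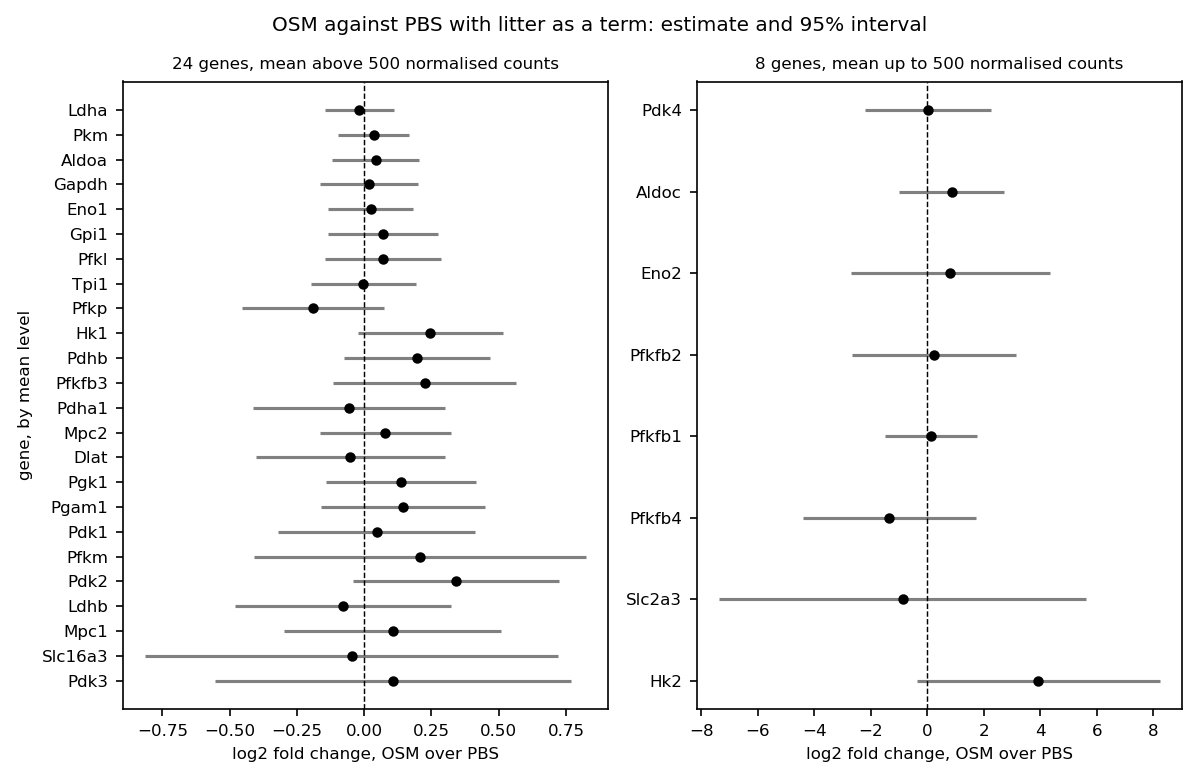
Points are log2 fold changes of OSM over PBS from edgeR with litter as a term, and lines are 95% intervals, with genes ordered by mean level and a separate scale for the 8 genes with at most 500 normalised counts. All 32 intervals include 0. For the 9 genes above 10000 normalised counts they stay between -0.45 and 0.29.

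Among the transporters, Slc16a3 (chromosome 11, 120838846 to 120851694) encodes the lactate exporter MCT4, and its normalised counts were 1139, 754, 1274, 884 and 219 in OSM-treated mice 1, 2, 5, 6 and 9. In the PBS-treated samples it was 249 to 1632 with a median of 642. The log2 fold change was -0.05 (95% interval -0.82 to 0.72), and the value turned positive, 0.17, in a model without litter. Slc2a3, which encodes the glucose transporter GLUT3 known from neurons, had reads in 8 of 11 mice and at most 378 normalised counts, in PBS-treated mouse 11.
Hk1 (chromosome 10, 62104621 to 62215687) encodes the hexokinase of most tissues. It was 9911, 13338, 9243, 7460 and 9997 normalised counts in OSM-treated mice 1, 2, 5, 6 and 9, and 6307 to 9821 with a median of 8432 in the PBS-treated samples. Only OSM-treated mice 1, 2 and 9 exceeded every PBS-treated sample. On the log2 scale the fold change was 0.25 ± 0.12 (SE; unadjusted p = 0.0702, adjusted p = 0.955, edgeR), and 0.29, 0.12 and 0.37 within litters 1, 2 and 3.
Hk2 (chromosome 6, 82699740 to 82751469), the hexokinase that hypoxia is known to induce, was near the limit of detection. It was 13.7, 101, 337, 15.5 and 40.8 normalised counts in OSM-treated mice 1, 2, 5, 6 and 9. In the PBS-treated samples it was 0 to 12.5 in all mice but mouse 10, which had 215. The log2 fold change was 3.93 ± 1.95 (SE; unadjusted p = 0.0698, adjusted p = 0.955, edgeR), with a 95% interval of -0.38 to 8.23. It was 2.32 without OSM-treated mouse 5 and 1.35 in a model without litter, and the differences within litters 1, 2 and 3 were 4.35, 2.86 and 0.31. Mice 5 and 10, which held most Hk2 reads, were also the highest of their groups in rod markers, and the part of these in the result was not tested.

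On the way from glucose 6-phosphate to triose phosphates, the isomerase gene Gpi1 had 23529 ± 2641 normalised counts in OSM-treated samples (SD, n = 5) and 22262 ± 2251 in PBS-treated samples (SD, n = 6), with a log2 fold change of 0.07 (95% interval -0.14 to 0.27). Among the phosphofructokinases, Pfkl had 15960 ± 2047 and 14862 ± 2648 normalised counts, and Pfkm had 1455 ± 295 and 1279 ± 423. Pfkp (chromosome 13, 6629798 to 6698970) was 12558, 13405, 13397, 10374 and 9741 in OSM-treated mice 1, 2, 5, 6 and 9, and 11578 to 16723 with a median of 12900 in PBS-treated samples. The OSM-treated samples lay within or below the PBS range, and the log2 fold change was -0.19 ± 0.12 (SE; unadjusted p = 0.141, edgeR). The aldolase gene Aldoa had 32426 ± 5814 and 30340 ± 4042 normalised counts, in the same order of groups, and the log2 fold change was 0.04 (95% interval -0.12 to 0.20). Aldoc, known from brain and retina, had 64.6 to 723 in OSM-treated and 28.8 to 521 in PBS-treated samples. The triose phosphate isomerase gene Tpi1 had a log2 fold change of -0.00 (95% interval -0.20 to 0.19).

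Among the enzymes from triose phosphates to lactate, Pkm (chromosome 9, 59563364 to 59586663), which encodes pyruvate kinases M1 and M2, was 46451, 51303, 49995, 43827 and 44753 normalised counts in OSM-treated mice 1, 2, 5, 6 and 9, and 42070 to 49003 with a median of 46009 in PBS-treated samples. On the log2 scale the fold change was 0.03 ± 0.06 (SE), with a 95% interval of -0.10 to 0.17. Counts per gene do not separate the splice forms M1 and M2.
Eno1 (chromosome 4, 150321073 to 150337027) had 23108 ± 1638 normalised counts in OSM-treated samples (SD, n = 5) and 22618 ± 1424 in PBS-treated samples (SD, n = 6). Gapdh, often taken as a reference gene, had 24587 ± 5102 and 24192 ± 2024, with a log2 fold change of 0.02 (95% interval -0.16 to 0.20). Pgk1 and Pgam1, measured on their few readable windows, had log2 fold changes of 0.14 (-0.14 to 0.42) and 0.14 (-0.16 to 0.45).
Ldha (chromosome 7, 46490899 to 46505061) encodes the lactate dehydrogenase subunit that favours lactate formation. It was 46228, 50037, 56899, 58374 and 44520 normalised counts in OSM-treated mice 1, 2, 5, 6 and 9, and 41083 to 59527 with a median of 49357 in PBS-treated samples. Both groups spanned nearly the same range, and the log2 fold change was -0.02 ± 0.06 (SE), with a 95% interval of -0.15 to 0.11. Ldhb, the subunit of oxidative tissues, had 1205 ± 342 and 1176 ± 162 normalised counts.

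The Pfkfb enzymes make and degrade fructose 2,6-bisphosphate, the activator of phosphofructokinase. Pfkfb3 (chromosome 2, 11476244 to 11558888) was 3683, 3953, 3190, 2088 and 2854 normalised counts in OSM-treated mice 1, 2, 5, 6 and 9, and 1848 to 3769 with a median of 2569 in PBS-treated samples. The highest value, in OSM-treated mouse 2, was next to that of PBS-treated mouse 4. The log2 fold change was 0.22 ± 0.15 (SE; unadjusted p = 0.173, edgeR), and 0.23, 0.18 and 0.31 within litters 1, 2 and 3. Pfkfb1, Pfkfb2 and Pfkfb4 had means of 102 to 113, 103.5 to 117 and 66.0 to 125 normalised counts in the groups, and Pfkfb2 and Pfkfb4 were at 0 reads in some mice.

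Use of pyruvate by the pyruvate dehydrogenase complex is regulated by kinases. The pyruvate dehydrogenase kinases switch the complex off. Pdk2 (chromosome 11, 94914929 to 94932242) was 1437, 2113, 1280, 1315 and 943 normalised counts in OSM-treated mice 1, 2, 5, 6 and 9, and 673 to 1414 with a median of 1125 in PBS-treated samples. OSM-treated mice 1 and 2 alone exceeded the PBS range. The log2 fold change was 0.34 ± 0.17 (SE; unadjusted p = 0.0749, adjusted p = 0.955, edgeR), and 0.53, 0.08 and 0.44 within litters 1, 2 and 3. Pdk1, a known hypoxia target, had 1435 ± 218 and 1423 ± 238 normalised counts, Pdk3 829.3 ± 412 and 719 ± 216, and Pdk4 510 ± 400 and 463 ± 358.
Of the complex itself, Pdhb was 3138, 3556, 3791, 4523 and 3505 normalised counts in OSM-treated mice 1, 2, 5, 6 and 9, and 2652 to 4016 with a median of 3079 in PBS-treated samples. Its log2 fold change was 0.20 ± 0.12 (SE; unadjusted p = 0.137, edgeR). The partner subunit Pdha1 had a log2 fold change of -0.05 (95% interval -0.41 to 0.30), and the acetyltransferase Dlat one of -0.05 (-0.40 to 0.30). The carrier subunits Mpc1 and Mpc2 had 0.11 (-0.30 to 0.51) and 0.08 (-0.17 to 0.32).

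Within most enzyme families 1 paralog held nearly all reads in every mouse. Shares were computed from reads per exonic length, and they are descriptions without a test. A family here holds only its members among the 32 genes. Enolase thus leaves out Eno1b (5.74 RPKM) and Eno3 (2.82), which had higher means than Eno2 (1.46). Hk1 held 99.2% ± 1.27 of the hexokinase reads (SD, n = 11), Aldoa 99.2% ± 0.79 of aldolase, Eno1 98.9% ± 1.03 of enolase, and Ldha 97.6% ± 0.42 of lactate dehydrogenase. These 4 genes came first in 11 of 11 mice. The enolase share would be larger still if unplaced Eno1 reads were counted. Pfkfb3 held 88.9% ± 6.59 of the Pfkfb family, and 79.99% ± 10.3 when reads were divided by the length of the canonical transcript, and also came first in all 11 mice.
Phosphofructokinase was divided. Pfkl held 56.3% ± 4.96, Pfkp 36.6% ± 4.88 and Pfkm 7.13% ± 1.74. Pfkl came first in 10 of 11 mice. The exception was PBS-treated mouse 10, with 45.4% Pfkl and 45.5% Pfkp. In OSM-treated samples the share of Pfkl was 58.4% ± 3.74 and in PBS-treated samples 54.6% ± 5.49, and the groups overlapped. Within litters it was 3.28, -1.26 and 10.7 percentage points higher in OSM-treated samples.
The Pdk family had no leading member. Pdk1 held 32.5% ± 9.67, Pdk2 27.5% ± 8.26, Pdk3 17.8% ± 5.26 and Pdk4 22.2% ± 13.5. The order depended on the length used, since with canonical transcripts Pdk2 held 42.2% ± 9.17 and came first in 10 of 11 mice, whereas Pdk1 held 22.9% ± 6.57, Pdk3 24.9% ± 6.36 and Pdk4 10.0% ± 7.20. The share of Pdk4 ran from 0 in PBS-treated mouse 10 to 44.8% in OSM-treated mouse 5.

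**Figure D3:**
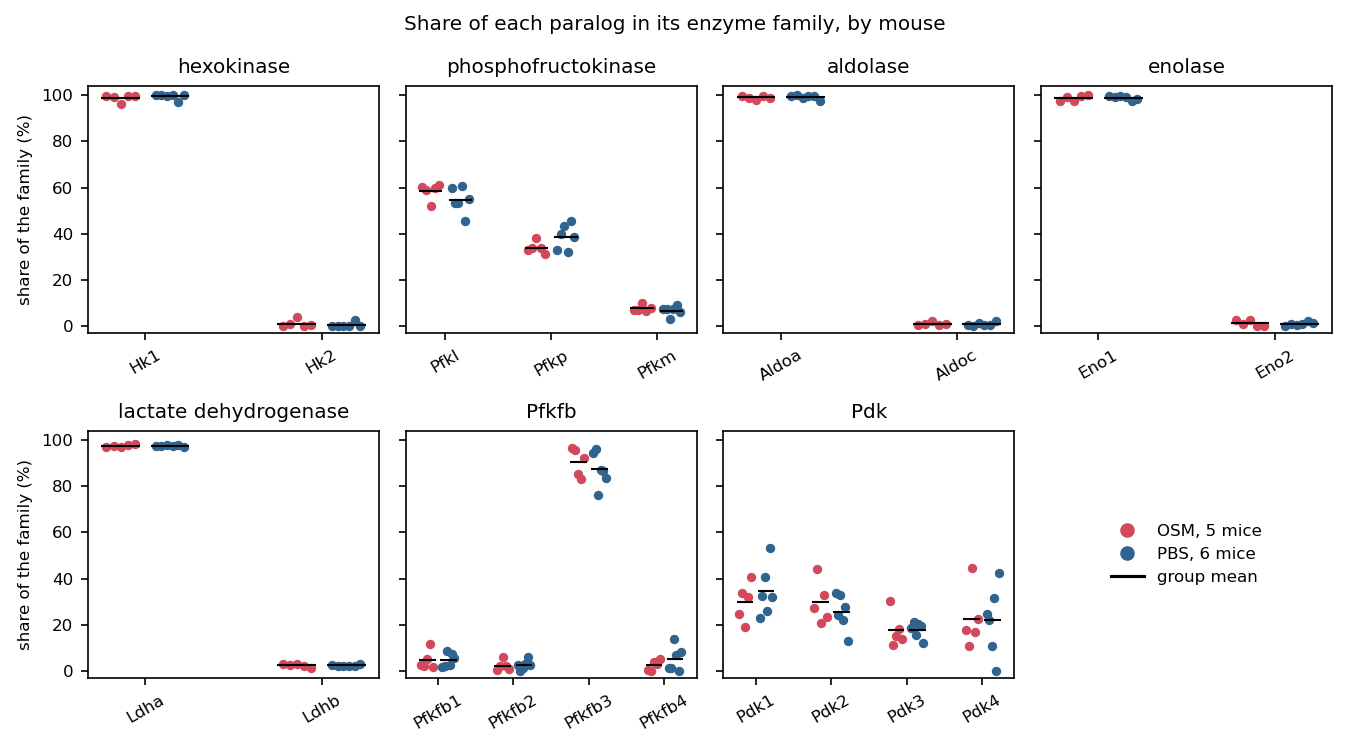
Each point is the share of a paralog in the reads per exonic length of its family in 1 mouse, in percent, with OSM-treated samples in red, PBS-treated samples in blue and group means as bars. Hk1, Aldoa, Eno1 and Ldha lie at 96.3% or more in every mouse, whereas phosphofructokinase is divided between Pfkl and Pfkp and the Pdk family among 4 genes, and the groups overlap for every paralog.

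The spread between litters was tested next. In the same edgeR model, with treatment as a term, 8 of the 32 genes had an unadjusted p under 0.05 for litter, against 10.3% of all genes. Adjusted over all genes, 0 of the 32 remained, and 3 of 17050 (0.0176%) were called. The lowest adjusted p was 0.0876, for Mpc2. The 8 genes were Mpc2, Ldha, Aldoa, Gapdh, Slc16a3, Pdk2, Pfkl and Pfkfb3. Leaving out any 1 of the 11 mice kept the unadjusted p of the first 6 under 0.05, whereas Pfkl kept it in 9 and Pfkfb3 in 8 of the 11 fits.
The share of all genes whose litters do not overlap was not computed. The genes described here were picked by their litter p from the same values, so their separation adds no support. In Ldha, every litter was apart from the others. It was 56899 to 59527 normalised counts in litter 2, 46228 to 52163 in litter 1 and 41083 to 45547 in litter 3 (unadjusted p = 3.95e-04, edgeR), and the mean of litter 2 was 1.34 times that of litter 3. Aldoa had the same order, with means of 36340 ± 3112, 29969 ± 1973 and 26311 ± 1531 normalised counts in litters 2, 1 and 3 (SD, n = 4, 4 and 3 mice), and litters 1 and 2 overlapped.
Gapdh was lowest in litter 1, where it was 19230 to 22228 normalised counts, against 24358 to 32086 in litter 2 and 24493 to 25753 in litter 3. Mpc2 (chromosome 1, 165287125 to 165308785) was 1901 to 2230 in litter 1, 2724 to 3337 in litter 2 and 3167 to 3951 in litter 3, a difference of 1.71 times between the means of litters 3 and 1. In both genes litter 1 did not overlap the others.
The opposite order was seen in other genes. Slc16a3 was 754 to 1632 normalised counts in litter 1, 482 to 1274 in litter 2 and 219 to 487 in litter 3, so the mean of litter 1 was 3.46 times that of litter 3. Pdk2 was 673 to 943 in litter 3 and at least 1030 in the other litters. Pfkl and Pfkfb3 were highest in litter 1, with means 1.33 and 1.43 times those of litter 3.
Marker sums were compared between litters by their ranges only, without a test. The mural, glial, leukocyte and endothelial sums overlapped between all litters. Some litters did not overlap in the sums of proliferation, rod and red blood cell markers. The summed level of 15 proliferation genes was 15894.8 to 23406.6 normalised counts in litter 1, 20775.7 to 28615.1 in litter 2 and 25555.2 to 33624.2 in litter 3. That of 12 rod markers was 13899.6 to 19320.1, 22789.6 to 192737 and 7191.2 to 52776.6, and that of the red blood cell markers 4651.9 to 14162.5, 18522.1 to 38458.3 and 3974.0 to 21078.3. The part of these in the litter differences was not tested, and litter and OIR run cannot be told apart.

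**Figure D4:**
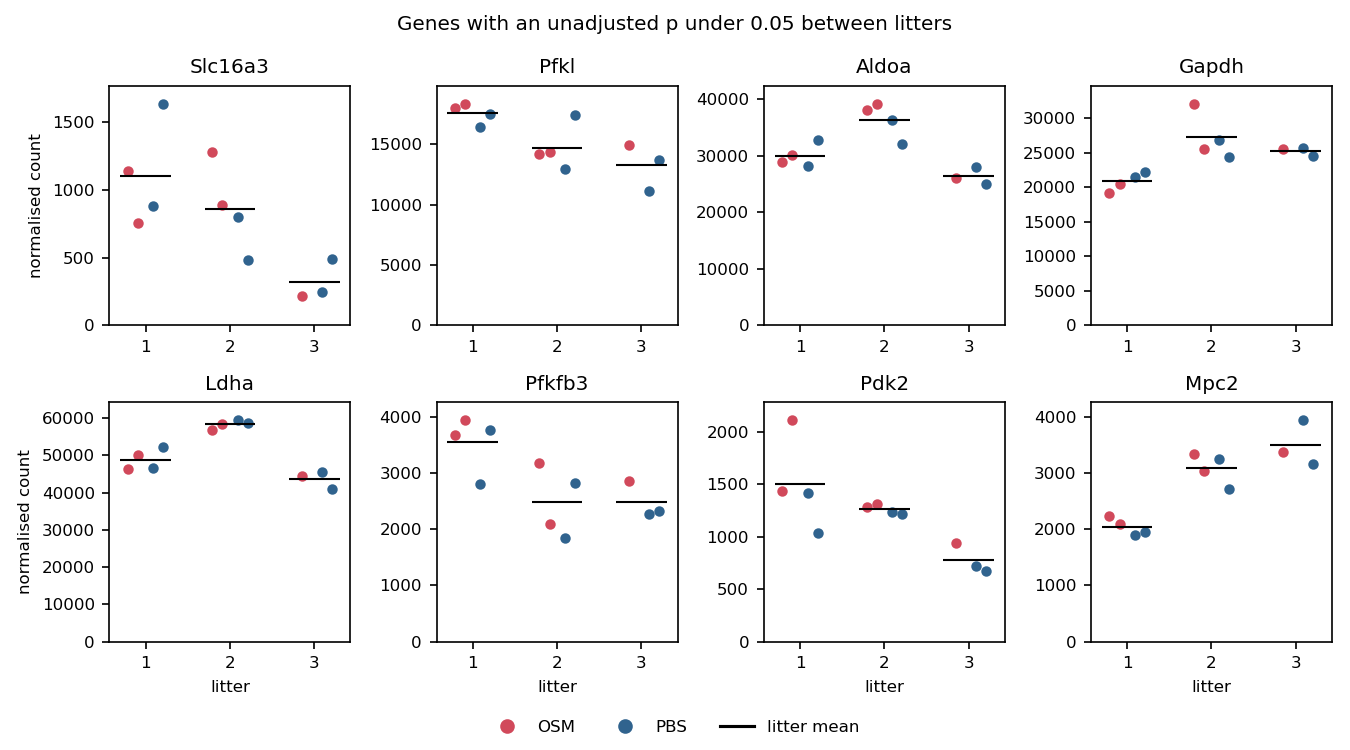
Normalised counts of the 8 genes with an unadjusted p under 0.05 between litters are shown for each mouse by litter, with OSM-treated samples in red, PBS-treated samples in blue, litter means as bars and axes that start at 0. Ldha and Aldoa are highest in litter 2, Mpc2 and Gapdh lowest in litter 1, and Slc16a3 and Pdk2 lowest in litter 3.

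Whether the OSM difference varied between litters was tested by the treatment-by-litter terms, with 5 residual degrees of freedom. No gene was called, neither among the 32 nor among all 17050 (0.0%), and at an unadjusted p under 0.05 the counts were 1 of 32 and 6.42% of all genes. The 1 gene was the neuronal enolase gene Eno2 (unadjusted p = 0.0211, adjusted p = 0.670, edgeR). Its normalised counts were 320 and 105 in the OSM-treated and 18.1 and 121 in the PBS-treated samples of litter 1. In litter 2 they were 367 and 20.2 against 27.2 and 110. In litter 3 the only OSM-treated sample had 0 reads, and the PBS-treated samples had 282 and 163. The difference between litters thus rests on 1 mouse with no reads, in a gene with 0 to 327 reads per mouse.

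The variable genes had their highest values in few mice. Of the 8 genes with a mean up to 500 normalised counts (Slc2a3, Hk2, Aldoc, Eno2, Pfkfb1, Pfkfb2, Pfkfb4 and Pdk4), 5 were highest in OSM-treated mouse 5. Over these 8 genes the median deviation of mouse 5 from the gene mean was 2.33 on the log2 scale, and that of PBS-treated mouse 11 was 1.58. Among the 24 other genes, mouse 5 deviated by a median of 0.17, and was highest in 7. The same mouse had the highest summed rod markers, 192737 normalised counts, whereas mouse 11 had 13102.6. OSM-treated mouse 6, with 65617.8 in rod markers, had a median deviation of 0.25 over the 8 genes. PBS-treated mouse 10, with 52776.6, had one of -0.08. The part of rod RNA in these values was not tested. Without mouse 5, the log2 fold change of Aldoc went from 0.86 to 0.23, and those of Eno2, Pfkfb2 and Pdk4 turned from 0.82, 0.23 and 0.02 to -0.81, -0.38 and -0.45.

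**Figure D5:**
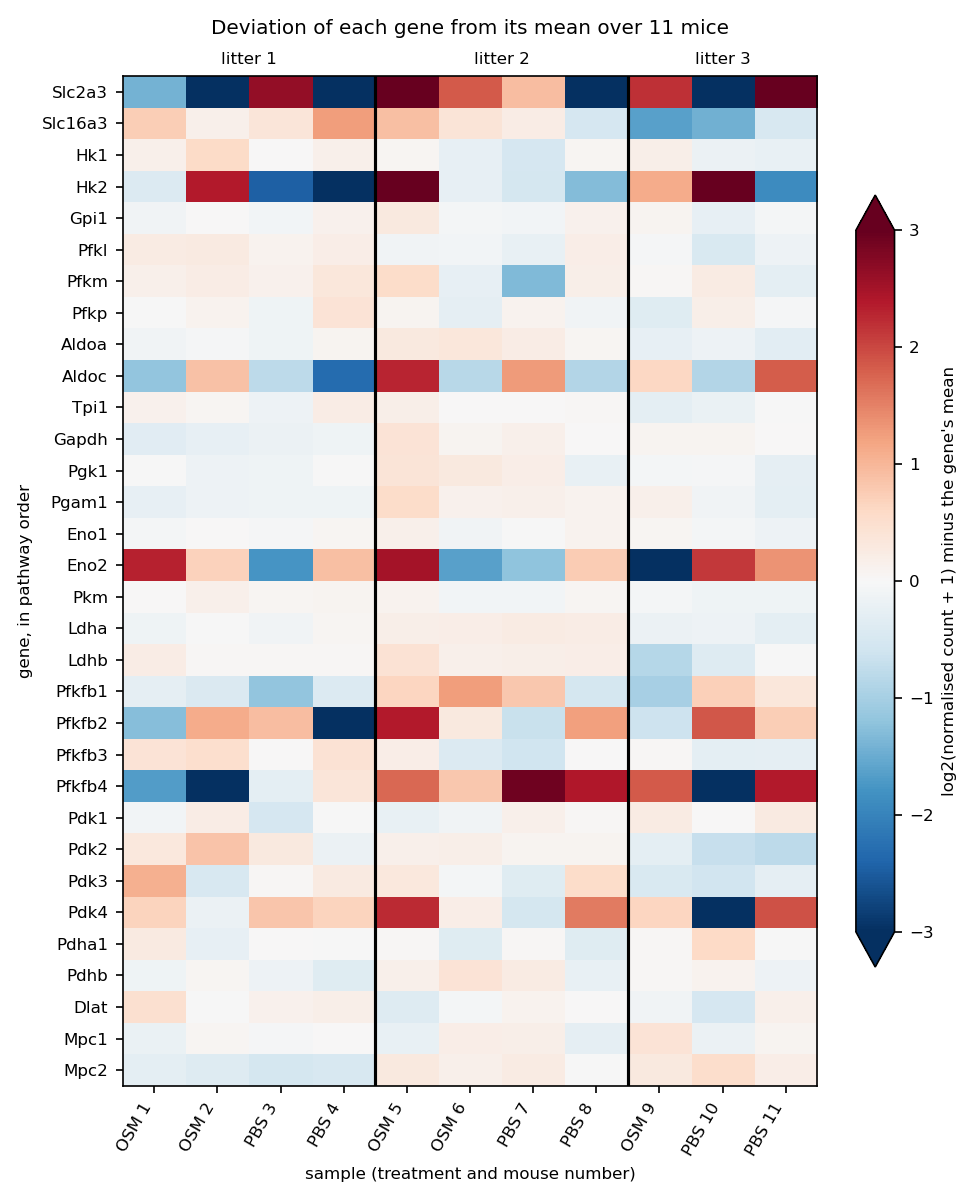
Colours give, for each of the 32 genes in pathway order and each of the 11 mice by litter, the log2 of the normalised count plus 1 minus the mean of the gene, with the scale ending at -3 and 3. The strongest colours are in the 8 genes with at most 500 normalised counts, and mouse 5 (OSM, litter 2) is the highest mouse in 5 of the 8.

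Other genes of the pathway, a list of 43 with further transporters, isoenzymes, the pentose phosphate branch and glycogen enzymes, were measured in the same way. Of these, 32 were tested, 16 were higher and 16 lower in OSM-treated samples, 0 were called and 6 had an unadjusted p under 0.05. The median log2 fold change was 0.00. The 3 genes with the lowest p were the transketolase gene Tkt, the phosphatase regulator Pdpr and the glycogen phosphorylase gene Pygb. Tkt, of the pentose phosphate branch, was 4654 ± 210 normalised counts in OSM-treated samples (SD, n = 5) and 6369 ± 878 in PBS-treated samples (SD, n = 6). Here the groups did not overlap, which held for 0.405% of all genes. On the log2 scale OSM over PBS was -0.42 ± 0.10 (SE; adjusted p = 0.955, edgeR). Pdpr had 0.67 ± 0.24 (SE) and Pygb -0.40 ± 0.14 (SE), both with the same sign in all 3 litters and an adjusted p of 0.955. The liver pyruvate kinase gene Pklr and the testis lactate dehydrogenase gene Ldhc were at 0 reads in all 11 mice.
Of 19 genes of the hypoxia response outside glycolysis, all tested, 10 were higher and 9 lower, 0 were called and 1 had an unadjusted p under 0.05, with a median log2 fold change of 0.04. The 3 with the lowest p were the oxidase gene Ero1a (0.59 ± 0.23, adjusted p = 0.955), Ankrd37 (0.32 ± 0.17, adjusted p = 0.960) and the carbonic anhydrase gene Car9, which had 0 to 88 reads per mouse (log2 fold changes with SE, edgeR). Of 15 proliferation genes, 2 were higher and 13 lower (median log2 fold change -0.30), and 2 had an unadjusted p under 0.05. All 8 mural markers had lower estimates (median log2 fold change -0.74), and 1 of them had an unadjusted p under 0.05. All 5 tested red blood cell markers had higher estimates (median 1.12), and all 5 had an unadjusted p under 0.05, with 0 called. The share of all genes with such a p was 4.96%. The part of these marker lists in the values of the 32 genes was not tested.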

How the data were processed

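RNA from CD31+/CD45- retinal cells of 11 mice was primed on poly(A) tails from 500 pg, amplified (PCR) and read from 1 end. The authors aligned reads to GRCm39 with STAR and counted them per GENCODE gene with featureCounts (both also in the submitters' processing notes), and deposited raw counts. The files of mice 10 and 11 carry other mouse numbers in their headers, and the sample records were followed. GENCODE vM39 matched 54749 of 55359 genes and gave positions and lengths.

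Counts were tested with edgeR 4.0.16 (limma 3.58.1, R 4.3.3): TMM, filterByExpr with a count minimum of 10, a robust quasi-likelihood fit with litter and treatment, F tests for treatment, litter and their interaction, and Benjamini-Hochberg adjustment over 17050 genes at 0.05. DESeq2 1.42.0, the tool of the study, was an alternative. Standard errors and 95% intervals were derived from the F statistic. Differences within litters are differences of mean log2(normalised count + 1). The scripts were tested on simulated counts. Shares, windows and motifs were computed in Python 3.11.15. Depth was 26697990 to 56033479 counts. Reads carry no molecular identifiers, so the spread between mice, not counting error, gives the precision.

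The 32 genes and all lists were chosen with earlier results of these data known. All 32 genes are named. Of the other pathway and hypoxia lists, the 3 genes with the lowest p are named, and of marker lists the summed level and genes at 0. The transport genes, Eno1b, Eno3 and the genes at 0 reads in all mice are also named from the other pathway list. Tests over the list, protein identities and the in vitro samples were not used here. Alternatives were another normalization, other filters, no litter term, no robust estimation, thinned libraries, DESeq2, other lengths and leaving out each mouse. Division by canonical length was added after seeing the data.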

Additional observations from a re-analysis of the deposited data

Results flagged for a closer look

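Mice that stood apart from the rest of their group were sought in each group for the 32 genes, the paralog shares and the summed marker lists. The gap of the extreme mouse to its neighbour was divided by the range of the group and compared with Dixon's 95% critical value. Of 94 comparisons, 12 (12.8%) passed. Dixon's value keeps its 95% level only for normally distributed values, whereas counts and shares entered here without a transformation. The genes also share mice and are not independent, so the number that passed cannot be set against chance.

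OSM-treated mouse 5 was highest of its group in Slc2a3 (gap 0.7501 of the range, 285 normalised counts against at most 71.3 in the other OSM-treated samples), in Hk2 (0.7308, 337 against at most 101) and in Pdk4 (0.8155, 1214 against at most 410.1). Its share of Hk2 in hexokinase was highest (0.8188, 3.73% against at most 0.795%), its share of Pfkl lowest (0.7964, 51.8% against at least 59.2%), and its summed leukocyte markers highest (0.9285, 421.9 normalised counts against at most 39.3).

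PBS-treated mouse 10 was highest of its group in Hk2 (0.9417, 215 normalised counts against at most 12.5), in the share of Hk2 (0.9255, 2.82% against at most 0.210%), in Pdha1 (0.6656, 4229 against at most 2863) and in summed rod markers (0.6335, 52776.6 against at most 27643.6), and lowest in Dlat (0.7018, 1689 against at least 2401). PBS-treated mouse 11 was highest in Slc2a3 (0.7435, 378 normalised counts against at most 97.0).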

How the results depend on the processing

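Of 570 log2 fold changes of the 32 genes between OSM and PBS under 18 alternatives, 522 kept their direction, 48 in 20 genes changed sign, and 0 passed an adjusted p under 0.05. The genes called over the whole series were 65 without a filter on low counts and 168 with DESeq2, against 0. Genes of the pathway with an unadjusted p under 0.05 were 1 without the filter (Hk2; 5.81% of all 28940 genes) and 2 with DESeq2 (Hk2 and Pdk2; 6.07%). Leaving out 1 mouse gave 0 to 1 of the 32, against 699 to 840 of all genes. These were Hk1 without OSM-treated mouse 1 or 6 or PBS-treated mouse 8, Hk2 without OSM-treated mouse 9 or PBS-treated mouse 10, and Pfkp without PBS-treated mouse 3. Calls between litters were 625 without the filter, 2 of them in the pathway (Slc16a3 and Mpc2), and 0 to 33 with 1 mouse left out, the highest without PBS-treated mouse 8. Calls for the effect by litter were 305 without the filter and 0 to 1 with 1 mouse left out. Without the filter, 2 of the 32 genes had an unadjusted p under 0.05 for this effect, against 2107 of all 28940 genes. With 1 mouse left out the counts were 1 to 3 of the 32, against 870 to 1276 of all genes. The highest count of the 32 was without PBS-treated mouse 11. The fit by litter without OSM-treated mouse 9 could not be made, since litter 3 then has no OSM-treated sample. The cause of these shifts was not tested.

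Without the litter term the log2 fold change changed sign in Slc16a3 (0.17), Tpi1 (0.033), Ldha (0.015), Ldhb (0.032) and Mpc2 (-0.0047). With 1 mouse left out, the ranges that crossed 0 were Slc2a3 -1.998 to 2.57, Slc16a3 -0.27 to 0.17, Pfkl -0.00039 to 0.16, Pfkm -0.0082 to 0.37, Aldoa -0.00079 to 0.087, Tpi1 -0.060 to 0.056, Gapdh -0.052 to 0.054, Eno1 -0.028 to 0.064, Eno2 -0.81 to 1.55, Ldha -0.040 to 0.0093, Ldhb -0.15 to 0.097, Pfkfb1 -0.15 to 0.55, Pfkfb2 -0.38 to 1.27, Pdk1 -0.057 to 0.11, Pdk3 -0.20 to 0.28, Pdk4 -0.45 to 0.86, Pdha1 -0.15 to 0.023, Dlat -0.15 to 0.025 and Mpc1 -0.017 to 0.19. The 12 genes with no change of sign included Hk1, Hk2, Pfkp, Pfkfb3, Pdk2 and Pdhb. Paralog shares also depended on the length used. With canonical transcripts, and with their windows found once in the genome, Pfkfb3 had 79.99% and 79.95% and Pdk2 42.2% and 42.1%, and with those windows Pdk1 had 22.6%. With canonical transcripts Pdk3 had 24.9%, Pdk4 10.0%, Pfkfb1 9.56%, Pfkfb2 5.64%, Pfkp 42.0% and Pfkm 4.82%. No paired analysis was possible because no mouse number is shared between treatments.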
